A study of Mus musculus with 4 samples.

Results

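A set of 355 short, highly methylated regions was taken from the 849172 regions of a mouse brain methylation table. They were chosen by a rule that used measured levels: autosomal regions with a value in all 4 libraries, a length of at most 300 bp and a mean level over the libraries of at least 70%. Of 25499 autosomal regions of that length, 355 (1.39%) met the rule, 24269 (95.2%) lay below 10% and 875 lay between. Those below 10% serve as the comparison class of short unmethylated regions.

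Whole-genome bisulfite sequencing gave methylation levels in CA1, the output field of the hippocampus, in C57B6/J mice at 117 days of age. The control group, labelled Tet2+f, and the group labelled Tet2+f_Camk2aCre hold 2 libraries each. The second label adds Cre recombinase named after Camk2a, a gene of excitatory forebrain neurons, and the series text calls the tissue glutamatergic Tet2 haploinsufficient. Tet2 encodes an enzyme that oxidises 5-methylcytosine, so the comparison asks where methylation changes when its dose is lowered. Both labels carry Tet2+f, and no group with Cre alone was analysed here. The effects of Cre and of lower Tet2 therefore cannot be told apart. All cells of the tissue enter a level, not only neurons with Cre. The labels do not say that the 2 libraries of a group came from different mice, so a p-value here measures the spread between libraries. The table gives percent methylation with no read counts, and the sequencing depth of a level is unknown. Bisulfite conversion reads 5-methylcytosine and 5-hydroxymethylcytosine alike.

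In mammals most CpG dinucleotides are methylated, and methylated cytosines mutate readily, so CpGs are sparse over most of the genome. Clusters of CpGs, called CpG islands, usually lie at gene starts and are free of methylation. The known exceptions include the promoters of many germline genes, which are methylated in somatic tissue, CpG-rich exons inside genes, and repeats.

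Where their sequence could be read, short regions held a near-constant number of CpGs, so that a short region there is a CpG-dense one. It could be read where a RefSeq promoter window (250 bases before to 50 after a gene start, GRCm38.p6, the assembly to which mm10 corresponds) held a whole region. All 5 such methylated regions held 24 or 25 CpGs, as did 1660 of 1879 (88.3%) of the short unmethylated ones, which ranged from 23 to 43. Members not wholly inside such a window had no CpG count, so the label is not shown for them. Clear exceptions to it were 3 members of 2, 2 and 20 bp, which were the last regions on chromosomes 2, 3 and 12 and can hold only a few CpGs. The 2 bp region at the end of chromosome 3 was at 50% and 90% in the controls against 100% and 75% with Cre. The next shortest member was 94 bp long. Without these 3 regions the class held 352.

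**Figure D1:**
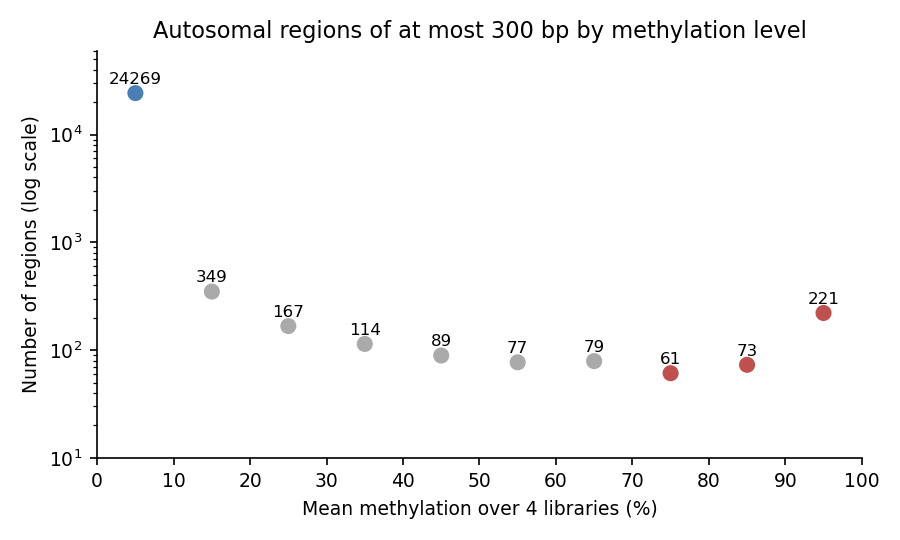
Number of autosomal regions of at most 300 bp (y axis, log scale) by mean methylation over the 4 libraries (x axis, bins of 10 percentage points); blue marks the class below 10%, red the methylated class and grey the 875 regions between. The count is highest, 24269, in the lowest bin, is 61 in the bin from 70 to 80% and is 221 in the bin from 90 to 100%.

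Levels within the methylated class were skewed to the top. The median of the mean level was 92.6%, with quartiles of 85.0% and 95.8%, and 221 of the 355 lay at 90% or more. The lowest member, in Sema6c, was at 70.2%, and the region just outside the limit, on chromosome 17, was at 69.99%. The median length was 260 bp, against 208 bp in the unmethylated class, and 7 members had the full 300 bp while 6 methylated regions of 301 bp fell just outside. No member was at 100% in all 4 libraries, and 306 of 355 were at 70% or more in every library.

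The sequences of 2 methylated germline promoters are shown beside that of an unmethylated one, so that their CpGs can be compared. Each run is the 250 bases before the gene start, 5′ to 3′ on the gene's strand, from RefSeq (GRCm38.p6), with every CpG in capitals. Mael (chr1:166238745-166238994, minus strand) and Tex12 (chr9:50561269-50561518, minus strand) overlapped a methylated short region, and Smc1b (chr15:85131958-85132207, minus strand) an unmethylated one.
Mael: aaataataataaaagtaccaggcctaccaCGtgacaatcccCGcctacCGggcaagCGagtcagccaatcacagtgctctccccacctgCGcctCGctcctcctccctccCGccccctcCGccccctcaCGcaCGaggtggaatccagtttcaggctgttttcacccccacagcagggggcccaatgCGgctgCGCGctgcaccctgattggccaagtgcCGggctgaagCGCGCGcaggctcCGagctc
Tex12: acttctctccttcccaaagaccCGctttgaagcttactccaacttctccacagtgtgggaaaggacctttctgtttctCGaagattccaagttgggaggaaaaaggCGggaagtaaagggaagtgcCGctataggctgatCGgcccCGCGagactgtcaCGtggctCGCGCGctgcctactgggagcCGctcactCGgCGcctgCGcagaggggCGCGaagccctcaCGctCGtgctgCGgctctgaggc
Smc1b: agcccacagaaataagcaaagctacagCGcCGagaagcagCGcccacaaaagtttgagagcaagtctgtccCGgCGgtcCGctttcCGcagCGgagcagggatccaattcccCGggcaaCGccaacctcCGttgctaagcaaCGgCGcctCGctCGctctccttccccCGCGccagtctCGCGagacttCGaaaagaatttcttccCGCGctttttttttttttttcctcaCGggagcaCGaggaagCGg

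The 250 bases held 18 CpGs in Mael and 20 in Tex12, against 25 in Smc1b. At the start of Ddx4, which was also methylated, they held 31. Other unmethylated germline starts held from 11 in Boll and 12 in Dmc1 to 40 in Tdrd5. The numbers of CpGs in the 250 bases thus overlapped between methylated and unmethylated starts. In each of these genes the short region covered only a part of the 250 bases. The counts are therefore not those of the stretch whose level was measured.

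Genes of the germline made up part of the methylated short regions at gene starts. In all, 22 members touched the promoter window of 21 genes, and 7 of those genes were in a list of 83 germline genes. Of that list, 67 genes had a window in the RefSeq table and 28 had a window with at least 18 CpGs. Of the 67, a methylated short region touched 7 and an unmethylated one another 7. Over all 27025 genes with a window, methylated short regions touched 21 (0.0777%) and unmethylated ones 6843 (25.3%). These counts describe the list and were not tested.

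Ddx4, the RNA helicase that marks germ cells, had 2 adjoining members at its start. The one upstream (chr13:112652337-112652496) was at 74.9% and 70.5% in the controls against 85.2% and 79.0% with Cre. The one across the start (chr13:112652117-112652336) was at 89.0% and 75.1% against 85.8% and 89.5%. In the first the Cre libraries lay above the controls, in the second the groups overlapped, and neither passed the test described below.

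Sycp1, which encodes the filament that joins paired chromosomes in meiosis, had 3 members in a row between 102935381 and 102936161 on chromosome 3. The one at the start was at 96.8% and 95.1% in the controls against 97.5% and 97.8% with Cre. Tex12, a partner of Sycp1 in the same meiotic structure, was at 86.9% and 93.3% against 93.2% and 91.2%. Mael, a factor of transposon silencing in male germ cells, was at 86.4% and 89.3% against 91.3% and 89.3%. Slc25a31, the ADP/ATP carrier of testis, was at 96.2% and 96.1% against 94.5% and 98.3%. These 4 starts were at 86.4% or more in each library.

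Dazl, an RNA-binding protein of germ cells, showed a sharp border. Its short member (chr17:50293462-50293688) was at 96.8% and 97.1% in the controls against 95.1% and 93.3% with Cre. The next region into the gene, of 390 bp, averaged 71.6%, and the one after it (chr17:50292901-50293071) averaged 0.552% and was at 0% in both control libraries. Methylation therefore went from nearly full to nearly absent within the first part of the gene in all 4 libraries. Dazl was the only listed germline gene with both kinds of short region.

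Rnf212, which fixes the sites of meiotic crossovers, had the lowest methylated start of the list. Its region was at 78.8% and 77.3% in the controls against 73.5% and 72.6% with Cre. By the gene named in the table, Spo11, the nuclease that starts meiotic recombination, and Rpl10l, a testis copy of a ribosomal protein gene, also held a member each, at 96.1% and 97.4%. Among genes outside the list, singled out after their values were seen, Fkbp6, a meiotic immunophilin, averaged 89.7%. Dmrtb1, a regulator of meiotic entry in testis, averaged 95.1%. D1Pas1, a testis RNA helicase, had 2 members at 84.8% and 94.1%. Hsf5, a factor of spermatogenesis, had 3 members in a row at 88.8%, 92.3% and 90.9%. Members also touched the promoter windows of further unlisted genes, among them Fam178b (93.9%), Ctnnd1 (93.5%), Sec1 (92.2%) and Dcdc2c (81.3%). Methylated short regions at starts were thus not limited to the genes described above.

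Other germline genes had short unmethylated starts in the same libraries. Tdrd5, Tdrd7, Tdrkh and Boll were at 0 to 1.5% in each library in the region that overlapped their window most. Smc1b, a meiotic cohesin subunit, averaged 2.23% and the recombinase gene Dmc1 4.32%. Stag3, another meiotic cohesin gene, averaged 8.89% and lay between 7.48% and 10.4% in every library. The 2 sets are far apart, with no library of a methylated start below 70.5% and none of an unmethylated one above 10.4%; the rule that made the classes fixes such a gap.

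**Figure D2:**
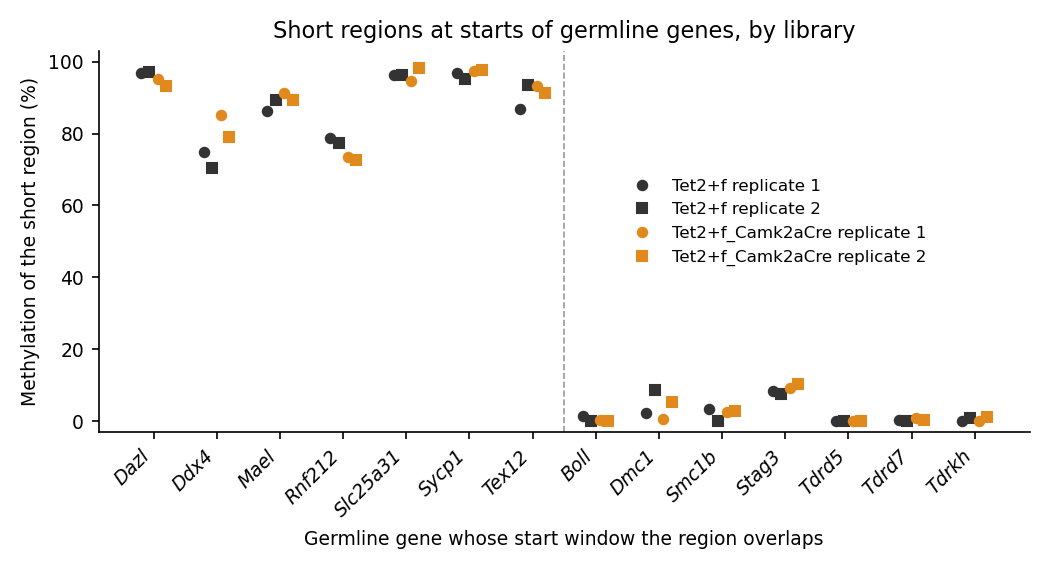
Methylation in % (y axis) in each of the 4 libraries at the short region that overlaps the start window of each listed germline gene most (x axis), with methylated starts left of the dashed line and unmethylated ones right of it. The 7 genes on the left lie between 70.5% and 98.3%, and the 7 on the right between 0% and 10.4%.

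Promoter windows with at least 100 bases inside a methylated short region numbered 18, from 16 genes, and were compared by their letters with other windows of the same length. The E-box CACGTG and the E2F core GCGGGA were searched on both strands. The GC box, GGGCGG, and the TATA box, TATAAA, were searched in the same way. GCGGGA and GGGCGG can share bases. CACGTG occurred in 9 of the 18 windows (50%), against 11.4% of 5678 windows overlapped in the same way by unmethylated short regions, 11.6% of 9510 autosomal windows with at least 18 CpGs and 7.14% of all 31396 autosomal windows. The 9 windows belong to 7 genes, Ddx4, Fam178b, Fkbp6, Mael, Rnf212, Sycp1 and Tex12, since Fam178b and Fkbp6 have 2 overlapping windows each. In Ddx4 the match began at position -29 from the gene start, in Tex12 at -93 and in Mael at -223, and in the runs of Tex12 and Mael above it reads caCGtg. The search covered the window and not only the short region. In Mael, Sycp1 and Stag3 the match lay outside the short region, whose level is therefore not that of the motif. The motif was not limited to windows of methylated germline starts, since it also lay upstream of the unmethylated starts of Boll and Stag3. It was absent from the upstream part of the windows of Dmc1, Smc1b, Tdrd5, Tdrd7 and Tdrkh, which were also unmethylated. The part after these starts was not compared gene by gene. Dazl, with a methylated start, had no match in its window. The shares of the other motifs were below those in CpG-dense windows. GCGGGA was in 38.9% against 47.6%, GGGCGG in 44.4% against 79.6%, and TATAAA in 0 of 18 windows against 3.95%. A match describes letters and is not shown to be a binding site, and the shares were not tested.

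Most methylated short regions lay away from gene starts. Of the 343 members on chromosomes covered by the start table, 31 (9.04%) lay within 1000 bp of a listed start, against 74.4% of the unmethylated class. The median distance was 17352 bp, against 190 bp. The share within 2000 bp was 12.8%. The start table is not complete, so some distances are too long. Starts on chromosome 18, with 12 members, were not analysed here.

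**Figure D3:**
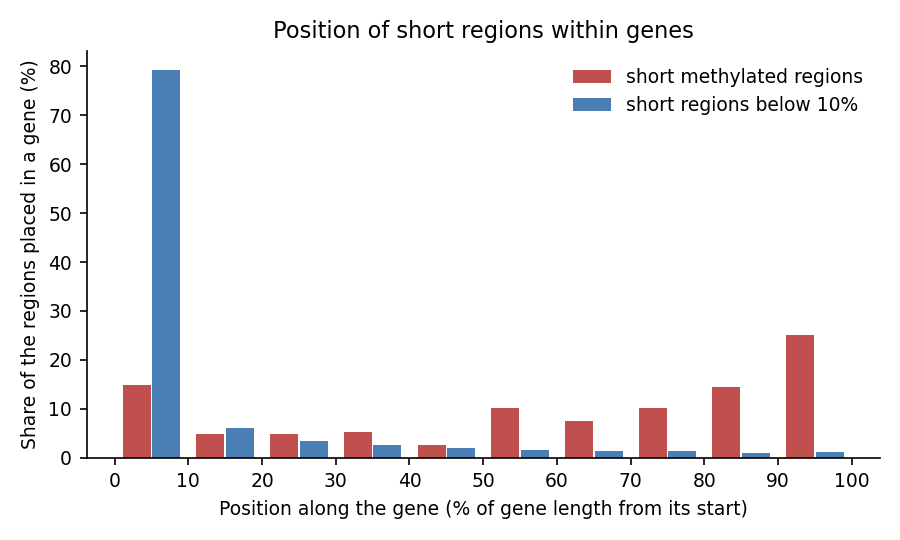
Share of short regions (y axis, % of the regions placed in a gene) by position along the gene named in the table (x axis, % of gene length from its start), for 187 methylated (red) and 19621 unmethylated (blue) regions. The last 10% of the gene holds 25.1% of the methylated regions, and the first 10% holds 79.2% of the unmethylated ones.

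The table named a gene for 197 members (55.5%), against 86.3% of the unmethylated class, and these members fell in 154 genes. Where the gene could be placed with RefSeq coordinates (187 members), the median position was 69.8% of the way along it, against 1.18% for unmethylated short regions. The last 10% of the gene held 47 members and the first 10% held 28. Exons and introns were not analysed here. Of the 154 genes, 95 (61.7%) also held an unmethylated short region, whereas 35.7% of all 25182 genes in the table held one. In 89 of the 91 such genes that could be placed, the median position of the methylated regions lay further into the gene than that of the unmethylated ones. In these genes the median position was 71.9% for the methylated and 1.04% for the unmethylated regions. Most thus had an unmethylated short region near the start and a methylated one further in.

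Bcl11b, a zinc finger transcription factor of neurons and T cells, was one of the genes with most members. Its 4 adjoining members (chr12:107915707-107916814), 93.8% of the way along the gene, averaged 96.0%, 93.5%, 92.9% and 79.0%. The level of the last was 82.1% and 77.1% in the controls against 81.2% and 75.8% with Cre, so its lower level was seen in each library. Shroom3, which shapes epithelial cells through actin, had 4 adjoining members at 93.7% to 95.3%. Chst13, a sulfotransferase of chondroitin sulfate, had 3 at 89.7% to 91.4% and no unmethylated short region. Ankrd9, an ankyrin repeat gene, had 2 at 95.6% and 96.8%. Within each of the runs in Shroom3 and Chst13 the mean levels lay within 2 points of each other.

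Zfp865, a zinc finger protein gene, had 4 members at 79.1% to 90.7%, and Zbtb7a, a transcriptional repressor, had 3 at 88.9% to 94.0%. Genes whose symbol starts with Zfp, Zbtb, Zfhx or Bcl11, a grouping made after the members were seen, held a member in 13 of 400 cases (3.25%), against 0.612% of all genes. Of those 13 genes, 12 also had an unmethylated short region. Their members lay at a median of 77.6% along the gene and had a median level of 87.5%. The earlier list of 60 zinc finger repressor genes had 59 in the table, of which 2 held a member, Zfp787 and Zfp865.

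Begain, Hcn2 and Grin3b, genes of synapses and membrane excitability, had members near the far end. Begain, which binds the postsynaptic scaffold, had 4 members at 72.6% to 89.2%. The libraries ranged from 62.6% to 78.4% in the member of 205 bp and from 61.7% to 91.4% in that of 219 bp. They ranged from 73.0% to 91.5% in the member of 193 bp and from 83.2% to 95.9% in that of 288 bp. Hcn2, a pacemaker channel, had 3 members at 73.8% to 84.9%, from 95.3% to 98.5% along the gene. Grin3b, an NMDA receptor subunit, had 2 at 74.9% and 84.7%. Grin3b was singled out after its values were seen.

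Apoe, the lipid carrier of astrocytes, held a member of 258 bp (chr7:19696721-19696978) at 88.0% along the gene, with a mean level of 93.7% and no unmethylated short region. Grb10, an imprinted growth regulator, was the sole imprinted gene with a member among the 40 of 52 listed that are in the table. Its region was at 75.5% and 63.3% in the controls against 80.8% and 67.9% with Cre. The lists of CA1 pyramidal, interneuron, astrocyte, oligodendrocyte, microglia and endothelial markers, of collagens and of the methylation machinery had no gene named for a member. Over all genes in the table the share with a member was 0.612%, so a count of 0 in lists of 15 to 36 genes is near the overall share. Unmethylated short regions were named for 7 of 20 CA1 genes, 11 of 20 interneuron genes, 7 of 16 astrocyte genes, 7 of 16 oligodendrocyte genes, 3 of 15 microglia genes and 5 of 15 endothelial genes. They were named for 8 of 36 collagen genes and 15 of 27 genes of the methylation machinery, against 35.7% of all genes. Of 28 histone modifier genes in the table, 2 held a member and 24 held an unmethylated short region.

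Members without a named gene numbered 158, and 42 of these overlapped a RefSeq gene. Those more than 1000 bp from a listed start and with no named gene (144) had a median level of 94.0%, against 90.5% for the 168 within genes and 92.2% for the 31 near starts. The members were spread unevenly over chromosomes, from 38 on chromosome 12 to 2 on chromosome 16. Per 1000 unmethylated short regions, chromosome 12 had 34.0 and chromosome 16 had 2.73. The window of 5000000 bp with most members, from 105000000 on chromosome 12, held 11, among them the runs in Bcl11b and Begain. The next, from 145000000 on chromosome 4, held 9, none with a named gene and all between 145836704 and 147219860. The longest run, of 5 members, lay on chromosome 4 from 156136972 to 156138119, with no gene named and mean levels of 96.4% to 98.9%.

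**Figure D4:**
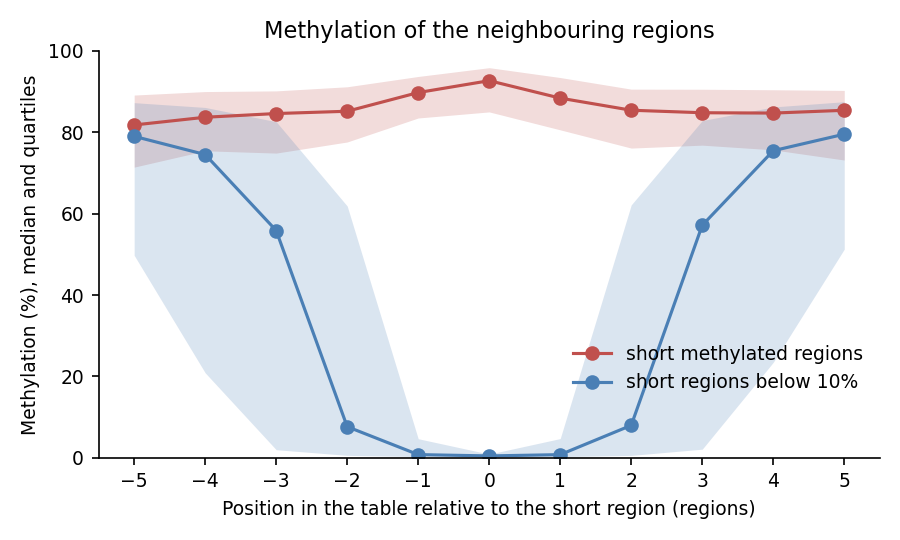
Methylation in % (y axis, median as points and quartiles as bands) of the regions at each place in table order before and after a short region (x axis), for methylated (red) and unmethylated (blue) short regions. Medians beside methylated regions stay between 81.8% and 89.7%, while those beside unmethylated ones climb from 0.783% to 79.5% over 5 regions.

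Methylated short regions lay among methylated neighbours. Both neighbours were at 70% or more for 296 of the 352 methylated short regions that have 2 (84.1%), and none had a neighbour below 10%. Of all autosomal regions with a value in every library, 81.0% were at 70% or more, so a methylated neighbour is usual. The share with both neighbours at that level was not counted over all regions. For the unmethylated class, 96.7% had a neighbour below 10%. The neighbours of methylated short regions had a median length of 939.5 bp, against 2528 bp over all autosomal regions, and their CpGs were not counted. In all 84 members formed 36 runs of 2 or more, and 271 stood alone. The nearest unmethylated short region was a median of 51209 bp away, and 17 members (4.79%) had one within 5000 bp. The rule did not use neighbours, but members in runs are neighbours of each other, and these shares were not tested.

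Averaged over the members, the groups differed by less than the Cre replicates did. The level was 89.8% and 89.5% in the controls against 90.2% and 89.5% with Cre. The group means were 89.6% ± 0.198 (SD, n = 2) and 89.8% ± 0.527 (SD, n = 2), which are 0.206 percentage points apart (two-sided exact permutation test, p = 1). The 6 ways to divide the libraries allow no p below 0.333. Without replicate 1 of the Cre group the difference was -0.167 points. With all 4 libraries it was also negative over members with a mean of at least 80% (-0.0721 points) and over those at 70% or more in every library (-0.165 points), and it was 0.107 points without the 3 regions below 50 bp. Its sign therefore depends on the library and on the limits of the class. Over the unmethylated class the levels were 0.756% and 0.754% in the controls against 1.10% and 0.743% with Cre, and the same replicate stood apart. The gap between the classes was 88.9% in both groups and differed by 0.0397 points (two-sided exact permutation test, p = 1). Without replicate 1 of the Cre group the gap differed by -0.155 points, and without replicate 2 of the control group by -0.0990 points. Members of at most 200 bp (65 regions) differed by 1.60 points, with both Cre libraries above both control libraries (two-sided exact permutation test, p = 0.333). These 65 include the 3 regions below 50 bp, which were 6.70, 17.5 and 11.4 points higher with Cre. The difference of this shorter class without them was not computed.

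No single member passed the test of the group difference. The test was limma on logit-transformed levels over all 849014 regions with a value in each library, with Benjamini-Hochberg adjustment at 0.05. It passed 0 of 355 members (0.0% over all regions), with no adjusted p below 0.937. Without adjustment, p was under 0.05 for 52 members, or 14.6%, against 4.6% of all regions. Of these 30 were higher with Cre (8.45%, against 2.25% of all regions) and 22 lower (6.2%, against 2.35%). The unmethylated short class gave 12.2% and longer methylated regions 4.18%. The share of members whose control and Cre libraries did not overlap was 34.9% (124 regions), close to the 32.8% of all regions.

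Replicates differed more in the members than in longer methylated regions. The median gap between the 2 control libraries was 2.98 points and between the 2 Cre libraries 2.73 points, against 2.44 and 2.39 points in longer methylated regions. The 90th percentiles were 11.5 and 10.5 points, against 6.46 and 6.30 points. Group differences ran from -24.3 to 26.7 points with a median of 0.179, and 24 members (6.76%) differed by more than 10 points, against 0.356% of longer methylated regions. The test draws its spread partly from all regions, and the part of the wider replicate gaps in the 52 unadjusted calls was not tested. Of the members, 184 (51.8%) were higher with Cre.

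**Figure D5:**
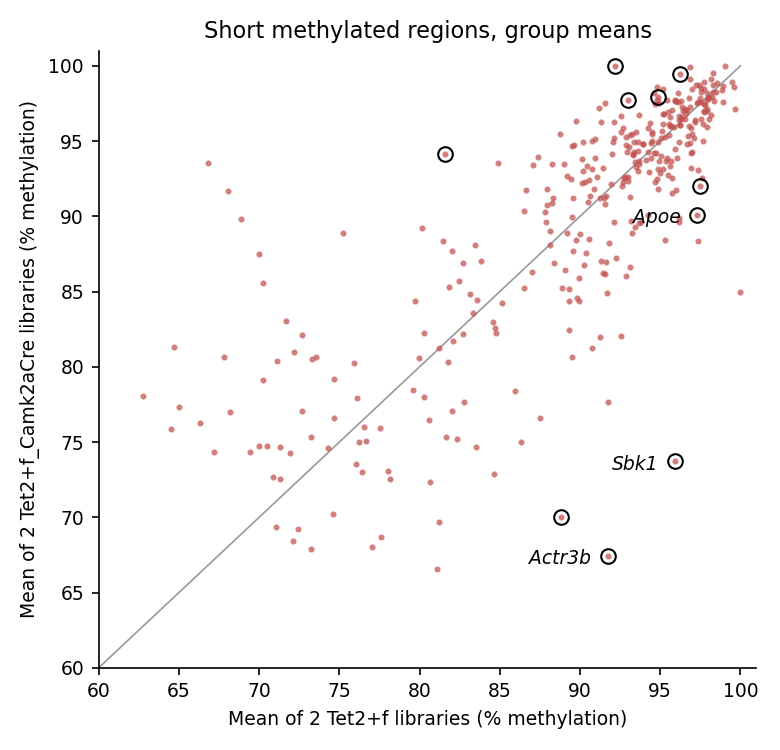
Mean methylation in % of the 2 Tet2+f_Camk2aCre libraries (y axis) against that of the 2 Tet2+f libraries (x axis) for the 355 members; the line marks equality and circles mark 5 members in each direction, those of smallest unadjusted p. Of the 355 members 24 lie more than 10 points from the line, and Sbk1 and Actr3b lie furthest below the line among the circled regions.

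The member with the smallest unadjusted p among those lower with Cre lay near the far end of Sbk1, a kinase gene of brain (chr7:126292090-126292327). It was at 94.9% and 97.0% in the controls against 71.6% and 75.8% with Cre, a difference of -22.2 points (limma adjusted p = 0.937). The next member, which begins at 126292340, was at 92.9% and 92.6% against 88.9% and 96.2%, so the difference did not extend into it. In Actr3b, an actin-related gene, the member (chr5:25768853-25769008) was at 95.3% and 88.2% against 61.9% and 73.0%. There the next region, of 1610 bp, was at 87.3% and 78.7% against 57.2% and 69.8%, so the groups were apart in both. The region on the other side of the member, of 3609 bp, was at 86.5% and 83.9% against 81.5% and 84.2%, so the groups overlapped there. The limma adjusted p of the Actr3b member was 0.937.

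The Apoe member was at 97.5% and 97.1% in the controls against 90.6% and 89.6% with Cre, a difference of -7.22 points. Its neighbours on either side were 2.72 and 2.11 points higher with Cre on average. In Nfatc2, a transcription factor of calcium signalling, 1 of 2 members was at 97.4% and 97.6% against 93.9% and 90.1%. The last of the 5 lay on chromosome 2 with no named gene (80264242 to 80264429) and was at 87.2% and 90.4% against 64.0% and 76.05%. In these 5 regions the groups did not overlap, but none passed the adjusted threshold.

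The 5 regions with the smallest p among those higher with Cre differed by 3.12 to 12.6 points, against -5.49 to -24.3 points for the 5 that were lower. Rgs6, a regulator of G protein signalling, was at 90.4% and 93.9% in the controls against 100% in both Cre libraries. Its relative Rgs9 was at 94.5% and 91.5% against 98.2% and 97.2%. The 2 without a named gene, on chromosomes 12 and 9, were 3.12 and 12.6 points higher. The one on chromosome 9 (106382835 to 106382989) was at 84.1% and 79.0% against 96.3% and 92.0%, and it lay between regions averaging 31.6% and 36.2%. Each of these 5 had an adjusted p of 0.937 by limma.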

How the data were processed

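The authors deposited percent methylation per region and library, in 1 table with 4 library columns. Per the submitters' processing notes the build was mm10 and the named tools are Bismark 0.19.0, Trim Galore 0.4.5, FastQC 0.11.5 and edgeR. The sources used here do not give the definition of regions, the averaging of CpGs or any coverage minimum. Because the table holds no counts, a level from few reads weighs as much as one from many.

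Columns were matched to libraries by title. limma 3.58.1 in R 4.3.3 was fitted to log2((level + 0.01) / (1 - level + 0.01)) over all 849014 complete regions, and only the short regions are printed. The count test planned for a table with read counts was not used. The fit was also run on simulated levels, with replicate spread drawn from all regions at a like level. Members had wider replicate gaps than longer methylated regions, so that run does not show how the fit performs on them. Class means were compared by exact permutation over libraries. Gene positions came from RefSeq tables of GRCm38.p6.

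The members and gene lists were chosen with earlier results of these data known. Named regions are the 10 genes with most members, predicted genes left out, the 5 smallest p in each direction, members of the germline and imprinted lists, the shortest members, those at the limits and those over promoter windows; other names, the Zfp, Zbtb, Zfhx and Bcl11 grouping, the motifs and the chromosome windows were chosen after values were seen. Alternatives were a replicate block, other scales, limits and adjustments, and leaving out each library. A few named results are not reported here.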

Additional observations from a re-analysis of the deposited data

How the results depend on the processing

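Leaving out 1 library, changing the scale or the offset, adjusting over autosomes alone or adding a replicate block left 0 members past the adjusted threshold, with a smallest adjusted p among members between 0.807 and 0.954; at an unadjusted p under 0.05 there were 52. Since no region of the whole table passed with all 4 libraries, these counts of 0 say nothing about stability. Without 1 library, a group holds a lone library that is assumed to vary like the other group. The replicate block gave the same mean difference of 0.206 points and the same gap difference of 0.0397 points. The difference between replicates 1 and 2 in one group correlated at 0.0877 with that in the other over the members, so equal numbers were not treated as pairs. The mean difference turned to -0.0721 points with a mean of at least 80% and, in a setting chosen after seeing the data, to -0.165 points over members at 70% or more in every library; without the 3 regions below 50 bp, also chosen later, it was 0.107 points. Without 1 library it lay between -0.167 and 0.579 points. The difference of the class gap turned to -0.0519 points with the unmethylated class drawn below 20%, and lay between -0.155 and 0.234 points without 1 library. The number of members was 65 at 200 bp, 1694 at 400 bp and 353 to 357 over the libraries left out, and the share near a start was 12.8% within 2000 bp. The 10 regions named for their smallest p were chosen with groups that do not overlap, which fixes their direction under each alternative run. For the turned and moved values, the cause was not tested. Without read counts, the precision of a level of a short region is unknown.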

Other observations

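The rule left out the sex chromosomes. On the X chromosome 30 of 484 short regions were at 70% or more, 445 were below 10% and 9 lay between. On the Y chromosome 5 of 8 were at 70% or more and none was below 10%. Taf7l, a germline transcription factor gene, held 3 adjoining X-linked regions that averaged 70.6%, 80.4% and 94.8%. Its lowest region was at 75% and 71.7% in the controls against 83.7% and 52.0% with Cre, so the replicates of the Cre group lay further apart than the groups. AB512673.1 held 5 regions on the X chromosome, at 87.7% to 99.8%. These values belong to no comparison above and were not tested.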
